A study of Sus scrofa with 37 samples.

Results

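Beta cells of the pig pancreas were compared with alpha cells of the same organ at embryonic day 70 (E70), across all genes, in 5 libraries of each cell type. These 10 samples, of 37 in the study, were chosen by the cell type and age on their labels, and no expression value was used in the choice. The study profiled beta, alpha and delta cells by RNA sequencing after purification by FACS (fluorescence-activated cell sorting), between E40 and postnatal day 22. Beta and alpha cells at E40 (9 samples), at E90 (4 samples) and at postnatal days 8 and 22 (9 samples) entered only the tests of whether the difference at E70 departed from that at another age. The labels give pig pancreas, the cell type and the age for each group. They name no treatment, genotype, breed, sex or sorting marker, and do not say which libraries came from separate animals, so the p-values measure the spread between these samples, which may be partly technical.

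Beta and alpha cells are the main hormone-producing cells of the pancreatic islet. Beta cells release insulin, which lowers blood glucose, and alpha cells release glucagon, which raises it. Both arise in the fetus from the same endocrine progenitors, and transcription factors that include PDX1, NKX6-1 and MAFA on the beta side and the IRX factors on the alpha side are known to separate them.

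Values are TPM, each gene's abundance corrected for transcript length and for the total of its library. Depth could not be recovered because each library sums to the same total. Between 13225 and 15337 genes reached 1 TPM. Spearman's rho over genes was 0.889 to 0.964 between beta libraries, 0.899 to 0.962 between alpha libraries and 0.829 to 0.921 between the cell types. The first principal component (31.9% of the variance) placed the 5 beta libraries on one side, between -55.8 and -35.9, and the 5 alpha libraries on the other, between 23.8 and 78.1. Replicates 3 of both cell types lay apart on the second component (-66.7 and -53.4, against -5.6 to 45.4 for the others) and held the highest summed level of dissociation and early response genes, 4811 and 4385 TPM against 1484 to 2277 TPM. Beta replicate 5 held the most glucagon transcript of the beta libraries and alpha replicate 5 the most insulin transcript of the alpha libraries.

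The labels held against the hormones. INS (insulin, ENSSSCG00000033740.1) was at 194370, 137009, 214334, 222718 and 176888 TPM in beta replicates 1 to 5 and at 1049, 1790, 1404, 2197 and 6045 TPM in alpha replicates 1 to 5. Every beta library lay above every alpha library, and INS was 6.52 ± 0.53 higher (log2 difference of log2(TPM + 1), SE; limma adjusted p = 1.09e-05). It took 18.9 ± 3.41% (SD, n = 5) of the TPM of beta cells and 0.25 ± 0.203% of alpha cells. GCG, the precursor of glucagon (ENSSSCG00000015895.3), was at 62455, 51263, 108792, 77996 and 89847 TPM in the alpha libraries and at 61.3, 160, 139, 52.2 and 1699 TPM in the beta libraries. The groups did not overlap; beta replicate 5 stood far above the other beta libraries. The difference was -8.83 ± 0.77 (limma adjusted p = 1.75e-05), and -9.67 without that library. Whether a sorted library with some of the other hormone held a few cells of the other type or cells with little of that transcript each cannot be told apart in bulk RNA.

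Of the other hormones, UCN3 (urocortin 3, a peptide that beta cells release beside insulin) was at 905, 852, 1013, 955 and 787 TPM in the beta libraries and between 88.1 and 250 TPM in the alpha libraries. No library overlapped, and the difference was 2.39 ± 0.24 (limma adjusted p = 4.13e-05). PPY (pancreatic polypeptide) split the beta libraries, at 386 and 377 TPM in replicates 1 and 2, below that in replicate 5 and listed at 0 in replicates 3 and 4, against 217 to 612 TPM in the alpha libraries. Its difference of -3.79 ± 1.68 did not pass the test (limma adjusted p = 0.183). SST (somatostatin, the delta cell hormone) spanned 18.7 to 126 TPM in beta and 21.3 to 94.2 TPM in alpha cells, and its difference of 0.33 ± 0.49 did not pass (limma adjusted p = 0.728). TAC1, PYY and GAST did not pass either. GHRL (ghrelin) was listed at 0 in all 10 libraries and IAPP (amylin) did not exceed 1.02 TPM.

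**Figure D1:**
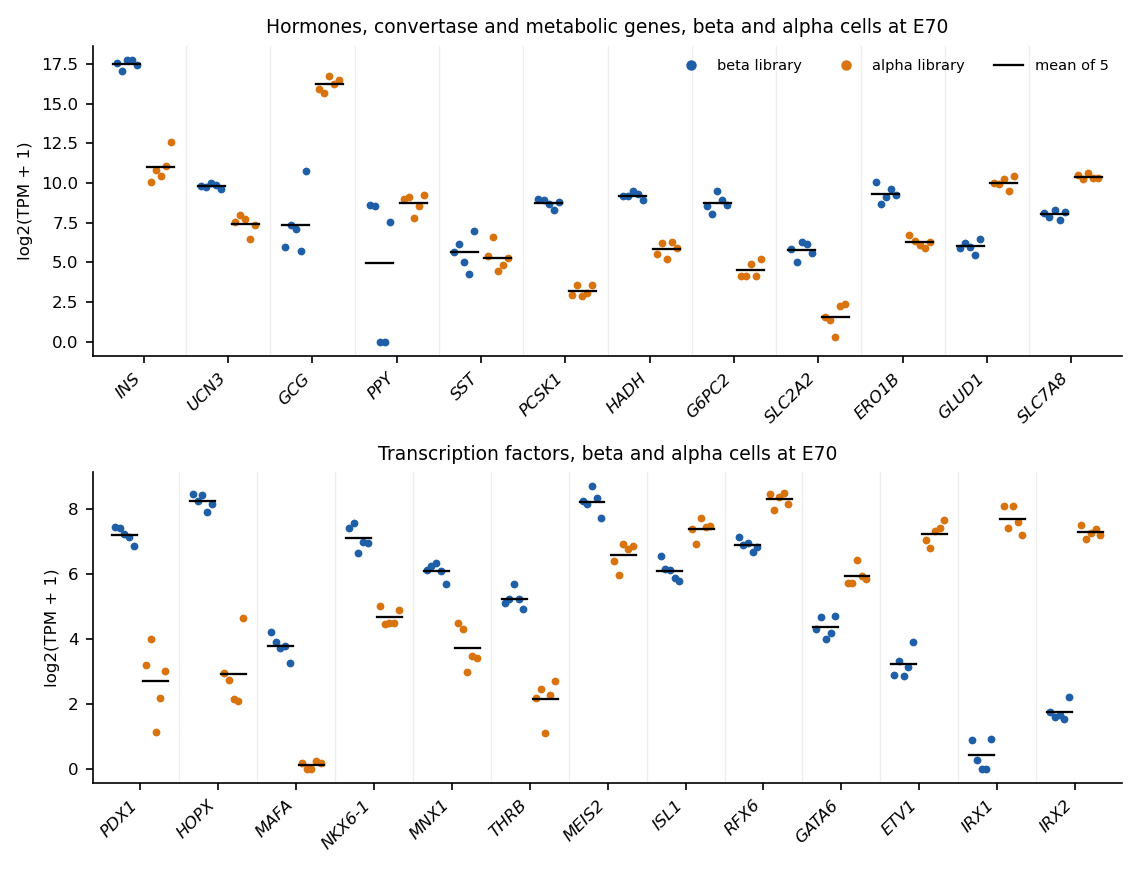
Level of hormone, convertase and metabolic genes (top) and of transcription factors (bottom) in the 5 beta (blue) and 5 alpha (orange) libraries at E70, on the y axis as log2(TPM + 1); each point is a library and each black line the mean of 5. INS, PDX1, HOPX and MAFA stood higher in every beta library, GCG, IRX1 and IRX2 in every alpha library, and PPY was listed at 0 in 2 beta libraries.

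Over all genes, 1825 of 15441 tested (11.8%) were called at an adjusted p below 0.05. Higher levels in beta cells were called for 680 genes (4.40%) and lower levels for 1145 (7.42%). Beta cells lay above alpha cells in every library for 626 genes (4.05%) and below in every library for 1190 (7.71%). Among the called genes, 999 differed by at least 1 on the log2 scale, 498 of them higher and 501 lower in beta cells, and 114 differed by at least 3. The split between higher and lower moved with the scaling: it was 834 to 817 with median-of-ratios scaling, 821 to 851 with quantile normalization, and 817 to 629 after the hormone and mitochondrial genes were removed, a step that raised the median difference over all genes by 0.143 from -0.07. With the 3 libraries of each type numbered above 100, 867 genes were called, and without replicate 5 of both cell types 1184.

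**Figure D2:**
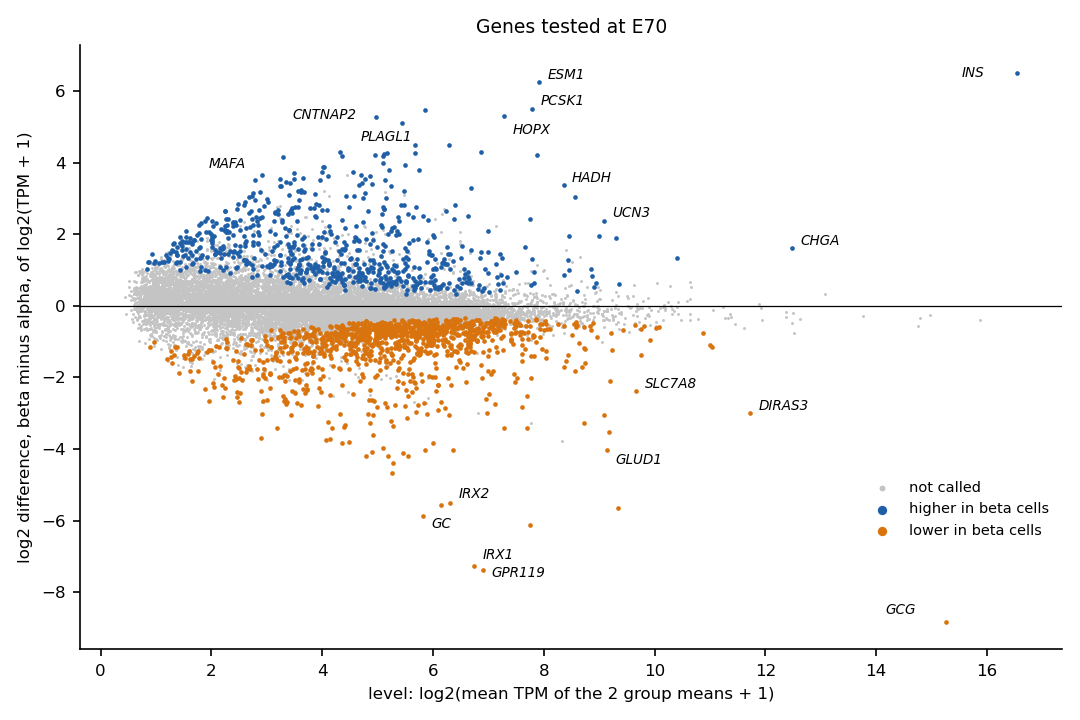
Log2 difference between beta and alpha cells at E70 (y axis) against the level of the gene (x axis, log2 of the mean TPM plus 1) for the 15441 genes tested, with genes called higher in beta cells in blue, lower in orange and not called in grey. INS (6.52) and GCG (-8.83) stood at the right-hand end, far from 0.

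Apart from the hormones, the largest differences on the beta side with a mean of at least 10 TPM were in ESM1, PCSK1, HOPX, CNTNAP2, PLAGL1, PDX1, LRRTM4 and ASB9, between 4.29 and 6.25, with 3 genes that have no symbol (4.27 to 5.49). ESM1 (endocan, a secreted proteoglycan) was at 439, 359, 671, 514 and 386 TPM in the beta libraries and at 6.57, 5.60, 0.3, 6.42 and 16.2 TPM in the alpha libraries, a clear gap (6.25 ± 0.53, limma adjusted p = 1.34e-05). On the alpha side they included GPR119, IRX1, GC, OXTR, IRX2, GUCA2A, EFS, IL6R and NELL2, between -7.38 and -4.21. GC (vitamin D binding protein) was at 137, 206, 12, 109 and 89.1 TPM in the alpha libraries and at 1.39 TPM or less in the beta libraries (-5.87 ± 0.63, limma adjusted p = 7.28e-05). GUCA2A (guanylin, a peptide known from the gut) stood at 48.0 to 100 TPM in alpha cells and at 0 to 5.96 TPM in beta cells. An identifier without a symbol, ENSSSCG00000012517.3, was at 1270 TPM in alpha and 28.6 TPM in beta cells. None of these genes overlapped between the groups, which their choice by the size of the difference favours. Of all 1825 called genes, 1488 did not overlap.

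Of 40 islet transcription factors tested, 14 were higher in beta cells, 12 were lower and 14 did not pass, against 4.40% and 7.42% over all genes. Their median difference of -0.07 equalled that of all genes. The shares of 4.40% and 7.42% over all genes also stand beside each list count that follows. PDX1 (a regulator of insulin transcription and of pancreas formation) was at 173, 168, 149, 138 and 114 TPM in the beta libraries and at 8.05, 15.0, 1.21, 3.53 and 7 TPM in the alpha libraries. The groups lay far apart (4.51 ± 0.42, limma adjusted p = 2.80e-05). MAFA, which activates insulin transcription in maturing beta cells, was low but detected in every beta library, at 17.6, 13.8, 12.1, 12.6 and 8.49 TPM, against 0.171 TPM or less in alpha cells (3.65 ± 0.25, limma adjusted p = 2.55e-06). NKX6-1, which maintains beta cell identity, was present in both cell types, at 99.5 to 187 TPM in beta cells and 20.9 to 31.3 TPM in alpha cells, without overlap (2.44 ± 0.19, limma adjusted p = 7.32e-06). HOPX, an atypical homeodomain protein without DNA binding of its own, had the largest difference of the 40 on the beta side, at 237 to 350 TPM against 3.22 to 24.1 TPM.

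The rest of the beta-enriched factors were MNX1 (68.2 ± 11.1 against 13.4 ± 6.35 TPM, SD, n = 5 each), the thyroid hormone receptor THRB (37.2 ± 8.14 against 3.71 ± 1.61), MEIS2 (306 ± 73.3 against 97.5 ± 24.6), GLIS3 (27.1 ± 2.18 against 11.4 ± 3.19), ZNF385D, ESRRG, LMX1B, TSHZ1, RFX3 and PAX6. PAX6, which both cell types require, differed least of these, at 709 to 862 TPM in beta cells and 398 to 615 TPM in alpha cells (0.60 ± 0.14, limma adjusted p = 0.0144). ESRRG, an estrogen-related receptor linked to beta cell maturation, overlapped between the groups because beta replicate 4 stood at 1.36 TPM and alpha replicate 1 at 2.22 TPM.

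Of the factors on the alpha side, IRX2 was at 154 ± 17.6 TPM (SD, n = 5) in alpha cells and 1.88 to 3.60 TPM in beta cells, and had the smallest p-value of all genes tested (-5.52 ± 0.16, limma adjusted p = 5.19e-09). IRX1, its neighbour in the Iroquois homeodomain family, was at 147 to 273 TPM against 0 to 0.898 TPM (-7.27 ± 0.26). ETV1, an ETS-family factor, was at 109 to 199 TPM against 6.18 to 14 TPM (-4.02 ± 0.22).

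Factors that both cell types use were also uneven. RFX6, needed for islet formation, was at 351, 251, 327, 361 and 286 TPM in alpha cells and between 101 and 140 TPM in beta cells. That gap was complete (-1.40 ± 0.13, limma adjusted p = 2.80e-05). Lower levels in beta cells, without overlap, were found for GATA6 (19.9 ± 4.42 against 61 ± 14.1 TPM), ISL1 (53.5 to 93.3 against 119 to 208 TPM), INSM1 (354 ± 96.1 against 639 ± 97 TPM), TOX3, NKX2-2 and FOXA2. HNF4A, MYT1, ST18, NEUROD1 and MLXIPL did not pass. NEUROD1 was at 287 ± 93.3 TPM in beta and 382 ± 138 TPM in alpha cells. PAX4, which promotes beta cell fate in the mouse, was at 13.2 to 25.5 TPM in 4 beta libraries and listed at 0 in replicate 4, against 5.88 to 21.6 TPM in alpha cells. With only the libraries numbered above 100 (3 of each type), 8 of the 26 called factors no longer passed, among them PAX6 and RFX3. Without replicate 5 of both cell types 5 did not pass, among them INSM1, LMX1B, TSHZ1 and PAX6. RFX3 was also lost on leaving out any of 7 single libraries. In all, 9 of the 26 lost their call under some alternative.

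**Figure D3:**
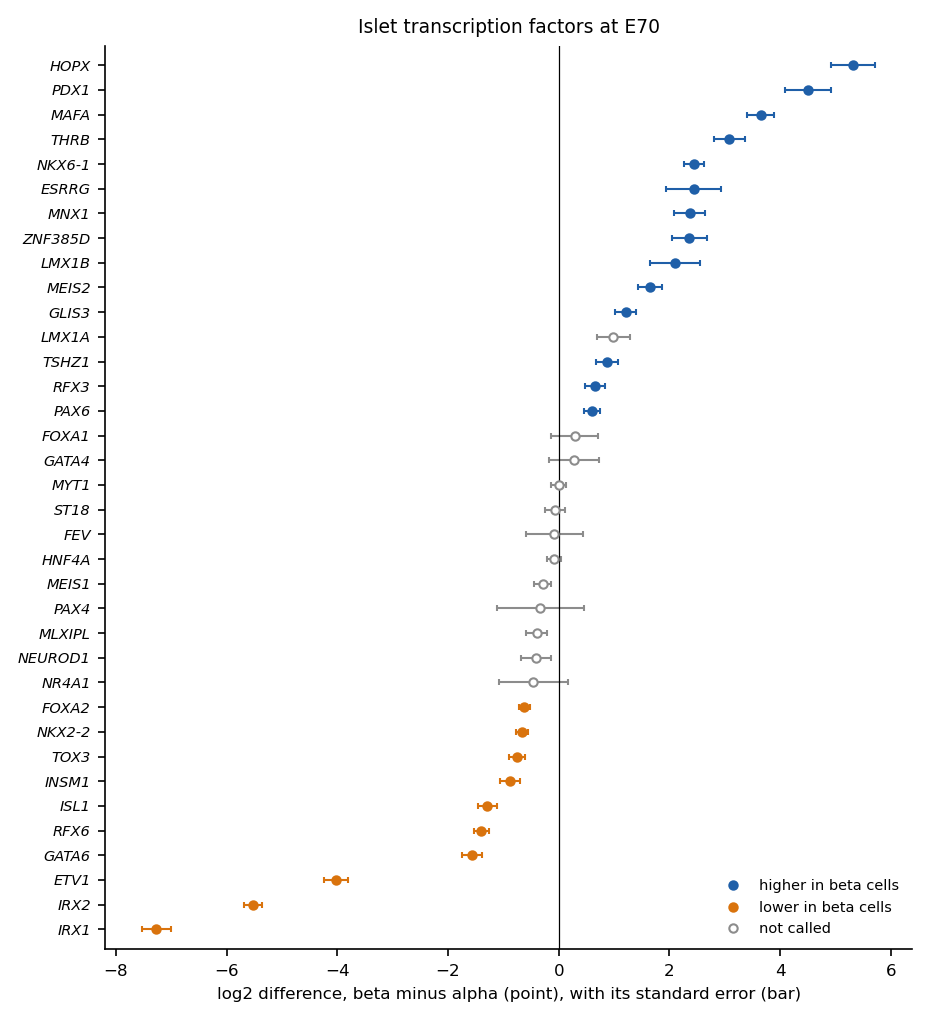
Log2 difference between beta and alpha cells at E70 (x axis) for the islet transcription factors reported here (y axis, ordered by the difference), with points for the estimate and bars for its standard error; blue, called higher in beta cells; orange, called lower; open grey, not called. HOPX, PDX1 and MAFA lay at the beta end and ETV1, IRX2 and IRX1 formed a separate group at the alpha end, below -4.

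Among markers of mature islet cells, 15 of 20 beta cell markers were higher in beta cells and 1, NPTX2, was lower (median 2.40); NPTX2 did not pass under any of the 3 other scalings. Of 22 alpha cell markers 14 were lower and none higher (median -1.55). Alpha markers that passed included DPP4, a dipeptidyl peptidase (59.0 ± 18.8 against 209 ± 45.5 TPM), and TTR (transthyretin, 660 ± 139 against 1265 ± 175 TPM), both with high levels in beta cells as well. ALDH1A1, FAP, SMOC1 and CRYBA2 did not pass. DLK1, SIX2 and SIX3, which mark beta cells in other species, did not reach 1 TPM in any of the 10 libraries, and LOXL4 and POU3F4 of the alpha list did not exceed 1.36 TPM. Of 13 delta cell markers 4 were higher in beta cells, GHSR, CALB1, FRZB and RBP4; RBP4 did not pass in most fits that left out 1 library. Their summed level over the list was 331 to 409 TPM in beta and 120 to 230 TPM in alpha cells, while SST itself was not called, and without beta replicate 5 its difference was -0.01.

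Among 22 prohormone processing and granule genes 9 were higher in beta cells and 3 lower (median 0.49). PCSK1, the convertase that begins the cleavage of proinsulin, was at 501, 480, 417, 312 and 445 TPM in the beta libraries and at 6.71, 11.1, 6.27, 7.52 and 11.1 TPM in the alpha libraries. The libraries of each type lay close together and the groups far apart (5.52 ± 0.19, limma adjusted p = 1.40e-08). PCSK2, the convertase that releases glucagon, spanned 500 to 763 TPM in beta and 697 to 1312 TPM in alpha cells, an overlap that the test did not resolve (-0.65 ± 0.20, limma adjusted p = 0.0629). The granins CHGA (8630 ± 1084 against 2848 ± 506 TPM), SCG2 (1921 against 789 TPM) and CHGB (631 ± 271 against 296 ± 82.0 TPM), which form the granule core, were higher in beta cells, CHGB with overlap. The granule zinc transporter SLC30A8 was at 499 ± 118 against 313 ± 102 TPM and did not pass (limma adjusted p = 0.0890). FURIN, a convertase of the Golgi, was lower in beta cells (49.1 ± 13.6 against 109 ± 6.81 TPM), as were PTPRN and SLC30A1. In the exocytosis machinery 3 of 30 members were higher (SYT13, SYTL5 and SYT7) and 3 lower (RAB3C, RPH3AL and DOC2B). The shares over all genes were 4.40% and 7.42%, and so few members do not set this list apart. RPH3AL did not pass under any of the 3 other scalings, and SYTL5 did not pass in most fits that left out 1 library. RAB3C shares its symbol with another identifier, so its level is uncertain.

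Of 37 genes of protein folding in the endoplasmic reticulum 8 were higher in beta cells and 1, NUCB2, was lower (median 0.23). ERO1B, the islet oxidase that forms disulfide bonds, was at 1049, 401, 548, 775 and 595 TPM in beta cells and at 104, 81.0, 68.5, 58.7 and 75.7 TPM in alpha cells. The beta libraries varied more among themselves than the alpha libraries and none overlapped (3.05 ± 0.24, limma adjusted p = 7.78e-06). The disulfide isomerases PDIA4 (298 ± 57.1 against 155 ± 32.7 TPM), P4HB (466 ± 106 against 232 ± 66.9 TPM) and PDIA3, the chaperones HSPA5 and HYOU1, and SDF2L1 and CRELD2 were also higher. Without replicate 5 of both types 4 members were called, all higher. Under the 3 other scalings the count of higher members was 9 to 12.

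In glucose metabolism 3 of 30 members were higher in beta cells and 6 lower (median -0.26). SLC2A2, the GLUT2 glucose transporter, was at 57.2, 32.3, 78.1, 70.8 and 47.8 TPM in beta cells and at 0.220 to 4.20 TPM in alpha cells, without overlap (4.21 ± 0.39, limma adjusted p = 2.52e-05). G6PC2, the islet glucose-6-phosphatase, was at 267 to 707 TPM against 16.4 to 36.5 TPM (4.21 ± 0.28), and PFKFB2, which stimulates glycolysis, at 305 to 435 TPM against 53.2 to 85.5 TPM (2.44 ± 0.16). ABCC8, the sulfonylurea receptor of the ATP-sensitive potassium channel, was lower in beta cells (339 ± 63.5 against 506 ± 76.6 TPM, limma adjusted p = 0.0327), as were PFKP, PFKFB3 and PKM. Under the 3 other scalings 3 or 4 members were lower, fewer than with TPM as deposited.

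Amino acid genes differed in both directions. Of 37 tested, 9 were lower and 7 higher in beta cells. GLUD1 (glutamate dehydrogenase) was at 58.8, 72.9, 61.0, 44.0 and 89.8 TPM in the beta libraries and at 1007, 997, 1245, 720 and 1369 TPM in the alpha libraries. All alpha libraries were far above all beta libraries (-4.02 ± 0.21, limma adjusted p = 4.27e-07). The amino acid carriers SLC7A8 (262 ± 41.9 against 1362 ± 150 TPM), its partner chain SLC3A2 (194 against 500 TPM), SLC7A2 (212 against 646 TPM), SLC38A4 (18.4 against 136 TPM), SLC38A5 (67.2 ± 9.99 against 134 ± 12.1 TPM) and SLC43A2 (51.7 against 118 TPM) were lower in beta cells. Higher in beta cells were GAD1 and GAD2, which make GABA from glutamate (GAD1 6.79 to 19.6 against 0.0764 to 0.449 TPM; GAD2 57.3 against 8.38 TPM), ARG2, ASS1, SLC6A17, SLC38A2 and SLC7A5. The count of lower members was 9 under each of the 3 other scalings and with only the libraries numbered above 100.

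In lipid metabolism 3 of 41 members were higher and 8 lower in beta cells (5 or 6 higher and 5 to 7 lower under the other scalings). HADH, a mitochondrial enzyme of fatty acid oxidation that is known to restrain glutamate dehydrogenase in beta cells, was at 574, 576, 709, 626 and 496 TPM in beta cells and at 45, 74.8, 36, 76.7 and 60 TPM in alpha cells. The ranges were far apart (3.38 ± 0.20, limma adjusted p = 1.12e-06). ACLY, which makes cytosolic acetyl-CoA for lipid synthesis, was higher in beta cells (491 ± 103 against 199 ± 17.5 TPM). CPT1A, the carnitine transferase that admits fatty acids to mitochondria (6.82 ± 1.15 against 19.6 ± 3.96 TPM), ACADL (12.4 ± 3.43 against 35.2 ± 6.71 TPM) and ACADVL, SCD, ELOVL2, ELOVL6, DGAT2 and FABP5 were lower. Of 35 genes of mitochondrial respiration 4 were lower and none higher, but with median-of-ratios scaling 2 were lower, and none with quantile normalization or after removal of the hormone and mitochondrial genes. Transcripts encoded by the mitochondrial genome took 8.87 ± 1.64% of TPM in beta and 11.5 ± 1.47% in alpha cells (exact permutation test, two-sided, p = 0.0476, adjusted over 7 quantities p = 0.0833; the smallest p that 5 against 5 allows is 0.00794).

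Receptors differed in both directions, with 10 of 44 hormone and neurotransmitter receptors higher and 7 lower in beta cells. GPR119, a receptor for lipid amides, was at 201, 143, 381, 215 and 249 TPM in alpha cells and at 1.63, 0.819, 0, 0 and 0 TPM in beta cells. Of the called genes only GCG differed more (-7.38 ± 0.33, limma adjusted p = 1.39e-07). OXTR (the oxytocin receptor) was at 73.7 to 202 TPM in alpha and 0.907 to 5.02 TPM in beta cells (-5.56 ± 0.35). CHRM4, ADORA2A, IGF1R, GHR and GRIA3 were also lower in beta cells. In the opposite direction, GHSR (the ghrelin receptor) was at 110, 98.8, 92.2, 102 and 79.6 TPM in beta cells and at 1.81 to 6.76 TPM in alpha cells (4.27 ± 0.24, limma adjusted p = 6.86e-07). PTGER3, a receptor for prostaglandin E2, was at 47.9 to 79.8 TPM against 0 to 6.86 TPM. GLP1R, an incretin receptor, was at a low level, 3.19 to 15.8 TPM in beta and 0 to 1.78 TPM in alpha cells. The glucagon receptor GCGR was also low, at 0.916 to 9.04 TPM in beta cells and listed at 0 in all 5 alpha libraries. GIPR, the receptor of the other incretin, was at 83.1 ± 18.5 and 71.2 ± 21.3 TPM and did not pass. CHRM3, ADRA2A, SSTR5, GABBR2 and FFAR3 were higher in beta cells.

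Of 38 receptor tyrosine kinases and growth factors 8 were lower and 1, VEGFA, higher in beta cells. RET, the receptor of GDNF family ligands, was at 27.3, 43.6, 69.7, 55.5 and 46.4 TPM in alpha cells and at 5.40, 10.2, 4.04, 4.91 and 11.5 TPM in beta cells. The groups did not overlap (-2.63 ± 0.31, limma adjusted p = 1.51e-04), and its co-receptor GFRA1 was lower as well (2.03 against 16.0 TPM). FGFR1 (19.2 ± 3.65 against 79.1 ± 10.5 TPM), ERBB3 (17.9 ± 5.05 against 81.8 ± 15.9 TPM), IGF1R, EPHB2, EPHA3 and FGF12 completed the group. Ion channels were likewise more often lower than higher in beta cells, 10 against 2 of 35 (7 to 9 against 2 or 3 under the other scalings). Beside both lists, 7.42% of all genes were lower and 4.40% higher, a split that also moved with the scaling. The calcium release channels ITPR1 (18.2 ± 4.44 against 122 ± 19.1 TPM) and RYR2 (3.51 ± 1.63 against 34.5 ± 6.01 TPM) and the potassium channels KCNB2 (60.1 ± 2.14 against 152 ± 30.6 TPM), KCNK3, KCNK16 and KCNH6 were lower. TRPM5, a cation channel opened by calcium, was higher (10.8 against 1.37 TPM).

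Surface and matrix genes were more often higher than lower in beta cells. In axon guidance and adhesion 16 of 52 members were higher and 9 lower (median 0.34). CNTNAP2, a neurexin-related adhesion protein, was at 83.9, 64.6, 31.5, 81.1 and 38.2 TPM in beta cells and at 0.124, 0.379, 0, 0.249 and 2.45 TPM in alpha cells. The difference was 5.28 ± 0.39 (limma adjusted p = 4.52e-06) with no overlap. GJD2, the gap junction protein that couples beta cells, was at 81.4 to 117 TPM against 22.2 to 28.9 TPM (1.97 ± 0.13), and L1CAM at 49.7 to 74.3 TPM against 10.5 to 17.8 TPM (2.02 ± 0.17). SEMA5A (63.5 against 3.24 TPM), CADM2 (29.6 against 0.971 TPM), UNC5D (30.9 against 1.43 TPM) and ROBO1 (33.1 against 5.69 TPM) were higher. PCDH9 (16.0 against 119 TPM), SEMA3E, NLGN1, NRP2 and CDH1 were lower. Of 44 extracellular matrix genes 7 were higher and none lower (median 0.68). FBN1 (fibrillin 1) was at 76.8, 71.4, 75.0, 101 and 71.1 TPM in beta cells and at 7.13, 7.90, 6.49, 9.16 and 7.52 TPM in alpha cells (3.21 ± 0.14, limma adjusted p = 1.39e-07), a wide and even gap. FN1, MFAP4, MFAP2, LAMA1, COL4A2 and ESM1 were the others.

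Mesenchyme markers were summed as well, and their part in the matrix result was not tested. Both lists hold MFAP4, so their sums are not independent. Their summed level was 175 to 1025 TPM in beta and 99.6 to 403 TPM in alpha cells, highest in replicates 1 and 2 of the beta libraries, with 1 of 17 called (MFAP4, higher; median 0.88). COL1A1 ranged from 0.770 to 220 TPM in beta and 2.94 to 65.0 TPM in alpha cells. FN1 (73 and 65.7 TPM) and MFAP4 (26.6 and 35.7 TPM) were highest in beta replicates 1 and 2. The summed matrix list was also highest there (2219 and 1722 TPM). FBN1 was highest in beta replicate 4 (101 TPM, against 71.1 to 76.8 TPM in the other beta libraries). The mesenchyme sum of that library was the lowest of the beta libraries (175 TPM). Acinar markers varied between libraries, 343 to 11375 TPM in sum in beta and 420 to 10646 TPM in alpha cells, with 0 of 18 called. Duct markers summed to 944 to 1574 TPM and 1193 to 1547 TPM, with 2 of 16 lower in beta cells, the keratins KRT8 and KRT18. Among endothelial markers 1 of 14 was lower (EGFL7), among immune markers 1 of 18 higher (CD3E, 4.48 ± 1.39 against 1.09 ± 0.414 TPM), and among neural and Schwann cell markers 1 of 14 higher (L1CAM) and 1 lower (ERBB3), with none of 6 red blood cell markers called.

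Growth and imprinted genes gave 4 higher and 5 lower of 18, and 4 and 2 under each of the 3 other scalings. PLAGL1, an imprinted zinc finger factor tied to transient neonatal diabetes, was at 77.7, 108, 49.7, 92.1 and 88.0 TPM in beta cells and at 1.93, 2.71, 0, 1.86 and 1.30 TPM in alpha cells. Every beta library was far above every alpha library (5.12 ± 0.34, limma adjusted p = 2.25e-06). MEST (103 ± 15.3 against 41.7 ± 10.7 TPM) and the cell cycle inhibitor CDKN1C (11.6 ± 2.52 against 3.42 ± 1.12 TPM) were also higher in beta cells, and PEG10 (181 against 569 TPM) and IGF2R (43.8 ± 4.33 against 81.4 ± 7.14 TPM) lower. DIRAS3, a small GTPase of the Ras family that was in no list and is named after its values were seen, was among the most abundant alpha transcripts, at 6500, 5424, 6728, 5386 and 5862 TPM against 1051, 931, 654, 498 and 699 TPM in beta cells (-3.00 ± 0.22, limma adjusted p = 3.99e-06). Of 37 cell division genes 2 were called higher in beta cells (TPX2 and CDC20) and none lower. None was higher on leaving out any of 6 single libraries, and 9 were without alpha replicate 2. Their median was 0.74, against -0.07 over all genes. The list summed to 479 to 651 TPM in beta and 300 to 562 TPM in alpha cells, so the few calls do not show equal levels. MKI67 was at 19.6 ± 7.87 against 10.3 ± 8.87 TPM (limma adjusted p = 0.183). Among 17 inhibitors and kinases of the cyclin D step 3 were higher, CDKN1C, CDK6 and CDKN2C. CDKN2C did not pass in most fits that left out 1 library, and with only the libraries numbered above 100 the call of CDK6 was also lost.

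Endocrine progenitor factors gave 1 higher and 3 lower of 17. DLL1, the Notch ligand of differentiating endocrine cells, was at 12.3 to 18.3 TPM in beta and 52.7 to 84.7 TPM in alpha cells (-2.09 ± 0.17, limma adjusted p = 9.22e-06), and SOX4 at 39.4 ± 11.2 against 83.8 ± 15.5 TPM. In the Notch, Wnt, Hedgehog and TGF-beta pathways 5 of 58 were higher and 4 lower, near the share over all genes, with the Hedgehog receptor PTCH1 lower (26.3 ± 3.74 against 54.6 ± 7 TPM). Of 33 monogenic diabetes genes 5 were higher (INS, SLC2A2, PDX1, MNX1 and GLIS3) and 5 lower (RFX6, KLF11, GATA6, NKX2-2 and ABCC8). Genes normally low in mature beta cells gave 2 of 18 lower (MGLL and MAF), ribosomal proteins 2 of 33 lower, interferon response genes 2 of 22 lower (7.42% over all genes) and dissociation genes 0 of 24. Of 6 genes listed as Y-linked none was called; their sum was low in replicates 1 and 3 of both cell types (19.5 to 31.8 TPM) and high in the other replicates of both (368 to 469 TPM).

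**Figure D4:**
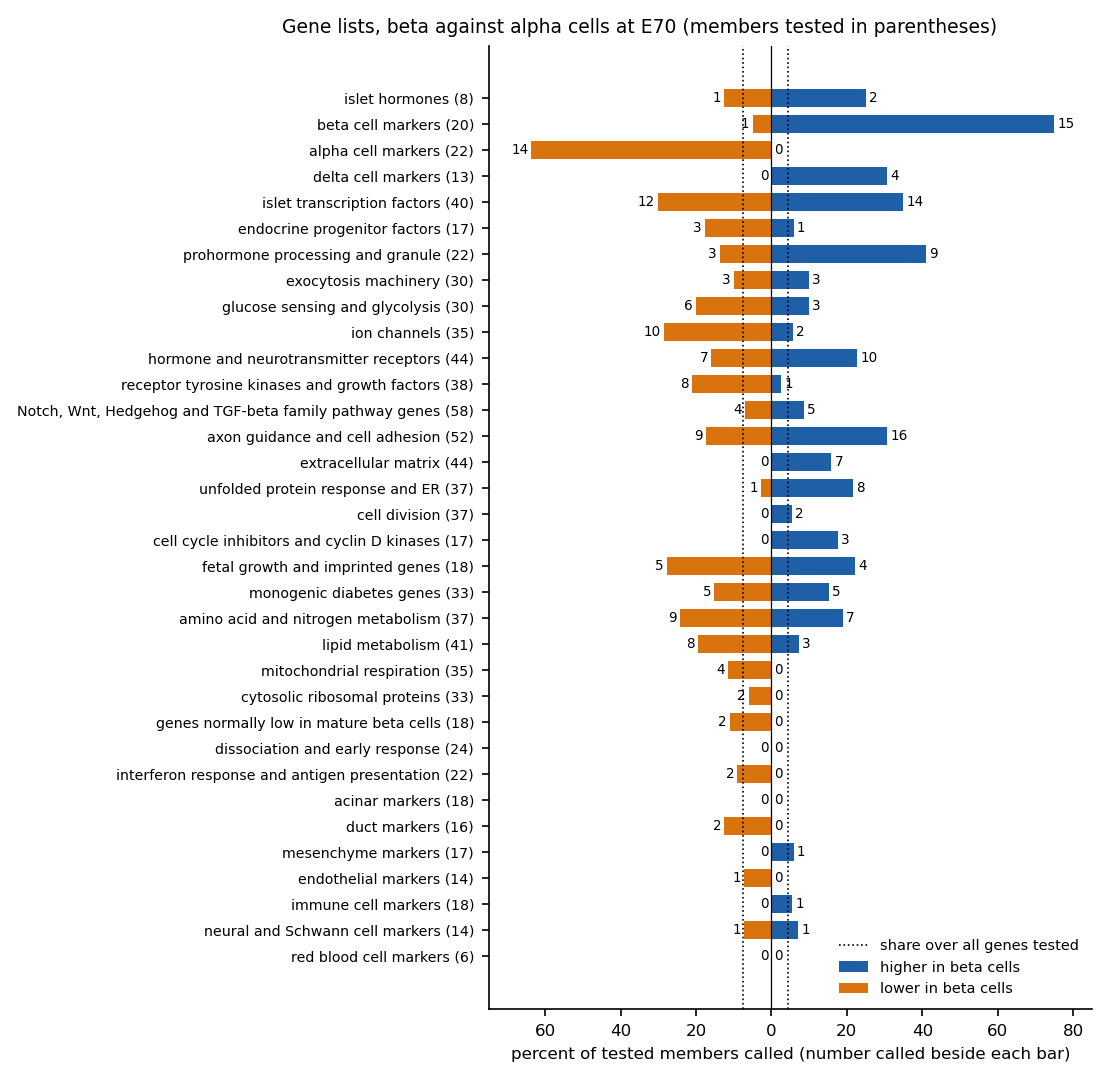
Share of the tested members of each gene list (y axis, number tested in parentheses) called higher (blue, to the right) or lower (orange, to the left) in beta cells at E70, in percent on the x axis, with the number called at each bar and the share over all genes dotted. Beta markers stretched to the right with 15 of 20 and alpha markers to the left with 14 of 22, while acinar, dissociation and red blood cell lists had no called member.

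The difference at E70 was then set against that at the other ages. Of the 680 genes higher in beta cells at E70, 96.0% had a higher mean in beta cells at E40, 95.1% at E90, 84.3% at postnatal day 8 and 88.8% at postnatal day 22. Of the 1145 lower genes 73.6% were lower at E40, 99.0% at E90, 95.9% at day 8 and 93.2% at day 22. These shares are descriptions. At E40 72.1% of all genes were higher in beta cells, and at the other ages 26.3%, 23.1% and 38.8%. The 3 tests that follow all use the same E70 libraries.

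Against E40, 874 of 16785 genes (5.21%) had a different beta to alpha difference, 118 more toward beta at E70 and 756 more toward alpha. The median over all genes was -0.34, and the other scalings raised it by 0.28 to 0.33, with fewer calls and the opposite majority. With median-of-ratios scaling 299 genes were called, 61.2% of them toward beta, with quantile normalization 239 (61.9%), and after removal of hormone and mitochondrial genes 247 (56.3%). Without alpha E40 replicate 1 the total was 335, and without alpha E40 replicate 2 it was 1368. IGF2 (insulin-like growth factor 2, a fetal growth factor) was at 1376 ± 276 TPM in beta cells at E40 and 1232 ± 297 TPM at E70, but at 99.2 ± 9.34 TPM (SD, n = 3) in alpha cells at E40 and 1617 ± 348 TPM at E70. At E70 the cell types overlapped, at 937 to 1652 and 1123 to 2089 TPM, while at E40 they did not. The beta to alpha difference was -0.40 at E70 and 3.76 at E40, a change of -4.16 ± 0.31 (limma adjusted p = 6.31e-09), and -4.28 to -3.51 under all alternatives run. PCDH17, a protocadherin, changed in the same way, from 3.65 ± 3.02 to 59.5 ± 22.5 TPM in alpha cells and from 76.7 ± 22.8 to 34.6 ± 6.82 TPM in beta cells (-5.01 ± 0.47, limma adjusted p = 4.89e-07).

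FABP5, a fatty acid binding protein, had a smaller alpha excess at E70, with 1241 ± 209 TPM at E40 and 108 ± 36.9 TPM at E70 in alpha cells and 11.4 ± 5.15 and 23.7 ± 12.1 TPM in beta cells (4.51 ± 0.82, limma adjusted p = 0.00196). MAFA was separated more at E70 than at E40, at 0.961 ± 1.62 TPM in beta cells at E40 and 12.9 ± 3.28 TPM at E70, with alpha cells below 0.21 TPM in every library at both (3.15 ± 0.52, limma adjusted p = 9.31e-04). The difference of PCSK1 was smaller at E70 than at E40 (-3.16 ± 0.40, limma adjusted p = 9.01e-05). PDE3A, which breaks down cyclic AMP, was at 18.7 ± 5.09 TPM in beta cells at E70 and 2.45 ± 2.20 TPM at E40, with alpha cells at 0.820 ± 0.481 and 2.49 ± 0.969 TPM (3.65 ± 0.61, limma adjusted p = 0.00110).

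Against E90, where each cell type had 2 libraries, 2 of 16785 genes (0.0119%) were called by limma, both below 10 TPM (DEFB136 and an identifier without symbol), and 365 had an unadjusted p below 0.05. With no more than 2 libraries a group this does not show that the 2 ages were alike. Against the neonatal mean of postnatal days 8 and 22, 88 genes (0.524%) were called, 64 more toward beta cells at E70 and 24 more toward alpha cells. The median over all genes was 0.20, and 0.004 to 0.029 under the other scalings. There the split was 51 to 68, 73 to 93 and 39 to 52. SNCB (beta-synuclein) was at 17.6 ± 10.2 TPM in beta and 5.50 ± 2 TPM in alpha cells at E70. It was at 0.603 ± 0.604 and 17.9 ± 1.51 TPM at day 8 and at 3.5 ± 0.849 and 26 ± 1.47 TPM at day 22 (4.47 ± 0.62, limma adjusted p = 3.95e-04). CDC42EP5, an effector of the GTPase CDC42, was at 9.70 ± 8.74 TPM in beta and 48.1 ± 21.4 TPM in alpha cells at E70. It was at 16.1 ± 10.3 and 3.75 ± 5.3 TPM at day 8 and at 29.8 ± 14.6 and 2.24 ± 1.36 TPM at day 22 (-5.43 ± 1.04, limma adjusted p = 0.00965). CDC42EP5 was not called with a pseudocount of 0.1. The test took the mean of days 8 and 22 also for genes shown here at a single day. NSG2, a neuronal vesicle protein, had a smaller beta excess at E70 than after birth (-3.42 ± 0.45, limma adjusted p = 2.51e-04). The difference of GHSR was larger at E70 (1.61 ± 0.37, limma adjusted p = 0.0380), with beta cells at 96.4 ± 11.3 TPM at E70 and 17.8 ± 2.26 TPM at day 22. That call was not checked under the alternatives. GC stood at 111 ± 70.8 TPM in alpha cells at E70 and at 7.98 ± 0.517 TPM at day 22, so that its alpha excess was larger at E70 (-3.58 ± 0.79, limma adjusted p = 0.0298). In 12 of 19 fits that each left out 1 library GC was not called.

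**Figure D5:**
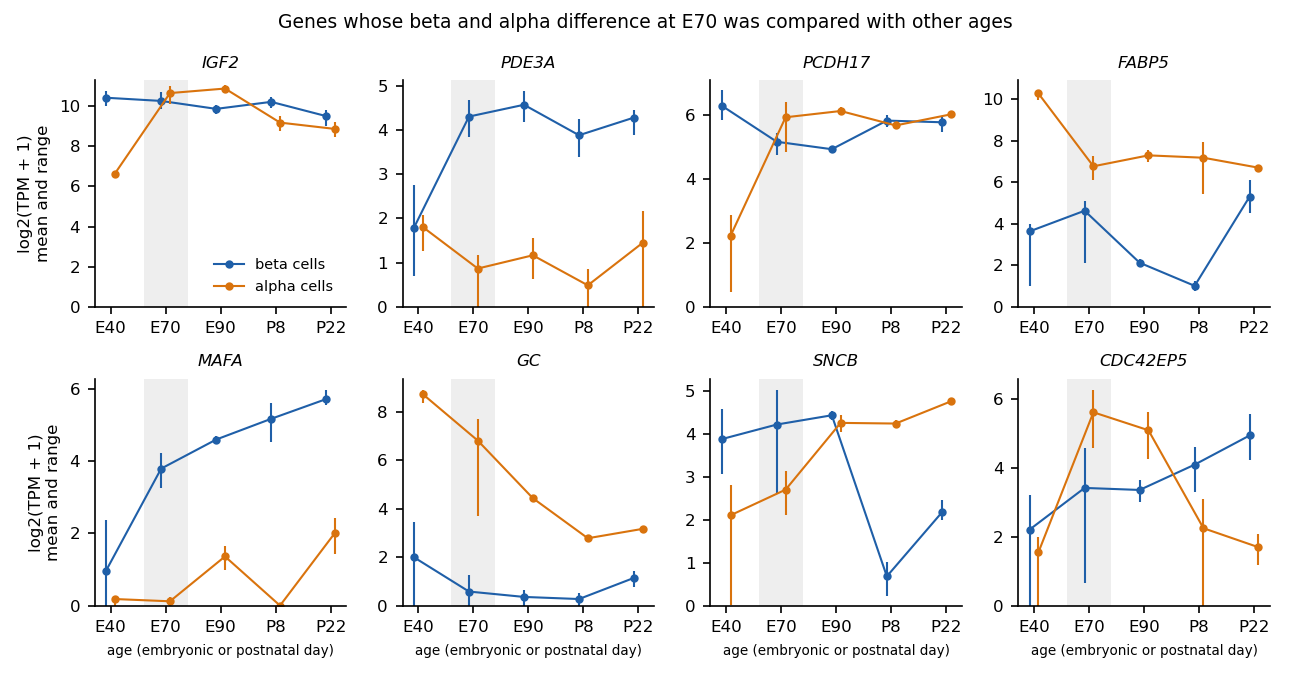
Level of 8 genes by age (x axis, embryonic or postnatal day) in beta (blue) and alpha (orange) cells, on the y axis as log2(TPM + 1), with points for the group's mean TPM on that scale and bars for the lowest and highest library; E70 is shaded. IGF2 and PCDH17 in alpha cells stood low at E40 and high at E70, MAFA separated the cell types more at E70 than at E40, and SNCB and CDC42EP5 changed sides after birth.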

How the data were processed

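The RNA of sorted pig islet cells was prepared with a stranded total RNA kit and sequenced on a NextSeq instrument, per the labels' protocols. The authors deposited 1 table of TPM values for 22630 gene identifiers in 37 libraries; it was made with Salmon 0.11.3, per the submitters' processing notes, with genome build and annotation not given in the sources used here. Every column sums to 1000000, so depth is unknown and no counting interval is given. Libraries were grouped by the labels, which give no replicate numbers. Replicates are numbered here in the order of the numbers in the sample titles.

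Genes with at least 1 TPM in at least 3 of the 10 E70 libraries were tested on log2(TPM + 1) with limma 3.58.1 in R 4.3.3 (empirical Bayes with an intensity trend, Benjamini-Hochberg adjustment, threshold 0.05). A log2 difference on this scale understates the change of low genes. Differences between ages were tested in 1 fit of 32 beta and alpha libraries with 22 residual degrees of freedom. Genes were named by rule: hormones and transcription factors, the 12 largest called differences each way with a mean of at least 10 TPM, up to 4 called members of each of 35 lists, and the 6 largest called each way per age test. Further members named beside a list's count were chosen after their values were seen. The comparison and the lists were chosen with earlier results of these data known, and some list genes are known markers of these cells. The fits were tested on simulated data. Alternatives changed the pseudocount, filter, scaling, variance model, libraries in the fit and pairing by title number. Some genes are counted in the totals and lists but are not reported here by name or value.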

Additional observations from a re-analysis of the deposited data

Results flagged for a closer look

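In 7 cases of 209 groups of 5 libraries examined, 1 library lay far from the other 4 of its group by Dixon's criterion (gap over range above 0.71); chance gives about 1 in 20. In beta replicate 4 ENSSSCG00000012517.3 was at 4.61 TPM, PAX4 was listed at 0, FOXA2 was at 65 TPM and FBN1 at 101 TPM. GATA4 was at 9.89 TPM in beta replicate 3 and MEIS1 at 15.4 TPM in beta replicate 1. P4HB was at 350 TPM in alpha replicate 2. FOXA2 and P4HB passed the test with and without these libraries as single omissions, and the direction of PAX4 changed without beta replicate 4.

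The test of the difference between ages picked out 24 genes. Of the 12 against E40, 7 kept their call under all alternatives run, and of the 12 against the neonatal mean 5 did; calls were lost most often for LHFPL3, GC and PAQR9 and for 1 identifier without a symbol. Against E40 the beta to alpha difference at E70 was higher by 5.03 for SPAG11B, 4.51 for FABP5, 3.98 for PYY, 3.88 for TEX35, 3.77 for SLC32A1 and 3.65 for PDE3A (log2). SLC32A1 carries GABA into vesicles, and PYY is a gut and islet peptide. It was changed by -5.01 for PCDH17, -4.17 for TMEM114 and -4.16 for IGF2, and by -4.39, -4.29 and -3.99 for 3 identifiers without a symbol. Against the neonatal mean it was higher by 4.47 for SNCB, 4.04 for LHFPL3, 3.64 for GLT1D1, 3.29 for FAT3, 3.09 for RORB and 2.94 for BTBD17. It was changed by -5.43 for CDC42EP5, -3.58 for GC, -3.42 for NSG2, -3.07 for SLC35D3, -2.89 for PAQR9 and -2.83 for PCOLCE2.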

How the results depend on the processing

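Of 129 named genes at E70, 88 kept direction and call under all alternatives run; over 3062 values 2839 did so, 182 no longer passed, 11 newly passed and 30 changed sign, in 9 genes that were not called. The number called at E70 was 1400 to 1729 with each library left out, 867 with the libraries numbered above 100 and 1184 without replicate 5 of both types (chosen after seeing the data). Against E40 it was 299, 239 and 247 with median-of-ratios scaling, quantile normalization and hormone and mitochondrial genes removed, 393 with all 37 libraries, and 335 to 1368 with each library left out. Against E90 it was 1 with a pseudocount of 0.1 and 0 to 3 with each library left out. Against the neonatal mean it was 166 with quantile normalization, 258 with array weights, 43 with all 37 libraries, and 55 to 151 with each library left out, the extremes without beta P8 replicate 1 and alpha E70 replicate 4. The cause of these shifts was not tested. The labels do not say that beta and alpha libraries with neighbouring title numbers share a source. Their deviations correlated by 0.204, 0.218, 0.201, 0.131 and 0.01. Replicates 1 to 4, but not 5, matched their own number best, a hint from the data and not the design. The Y-linked sum was low or high alike in the beta and alpha library of each number, also in replicates 5 (386 and 434 TPM). As 1 correlation was not above 0.1, neighbouring libraries were not treated as pairs. With these numbers as a replicate block 1842 genes were called at E70, 1330 against E40 and 256 against the neonatal mean.

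Signs changed as follows (log2). HNF4A was at 0.022, 0.081 and 0.074 under median-of-ratios, quantile and removal of hormone and mitochondrial genes, ST18 at 0.038, 0.065 and 0.089. FEV was at 0.018 under median-of-ratios, 0.081 under removal and 0.377 with libraries above 100; MYT1 was at -0.184 there and -0.021 without replicates 3. FOXA1 was at -0.019 under quantile normalization and PAX4 at 0.022 with array weights. Without replicates 5, SST was at -0.018 and GATA4 at -0.121. With each library left out the ranges were -0.009 to 0.663 for SST, -0.657 to 0.525 for PAX4, -0.057 to 0.574 for GATA4, -0.632 to 0.164 for FEV, -0.079 to 0.066 for MYT1, -0.172 to 0.014 for ST18 and -0.907 to 0.035 for NR4A1.

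TPM carry no depth, so low genes have an unknown counting error.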
